A study of Mus musculus with 9 samples.

Results

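DNA methylation was examined at the ends of 10 genes that build the meiotic chromosome axis and the synaptonemal complex or carry out meiotic recombination: Sycp1, Sycp2, Sycp3, Syce1, Smc1b, Stag3, Rec8, Hormad1, Dmc1 and Spo11. The genes were chosen by name and function. An end was kept when the CpGs within 1 kb of it had 10 or more reads in each of the 9 libraries, or when 5 or more of its CpGs were read in every library. Of their 20 gene ends, 8 passed, 1 for each of 8 genes, among 23099 gene ends that passed in the whole annotation. They were the transcription start (5′) ends of Sycp1, Sycp2, Sycp3, Smc1b, Stag3, Hormad1 and Dmc1, and the 3′ end of Syce1. For Stag3 this is the outer 5′ end of the gene, 7995 bp from the start in RefSeq's promoter table. Spo11 and Rec8 had no end that passed.

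The data are reduced representation bisulfite sequencing (RRBS) libraries, which read methylation at CpGs of the CpG-rich part of the genome. All were made from Abl.1 cells, B cells that were immortalised and grown as a single clone. The line is female and its strain background is 129S1/SvImJ x CAST/EiJ F1. Cells were collected on day 2 after growth with 1% DMSO, the solvent control (2 libraries), or with 0.2 µM (2 libraries), 2 µM (3 libraries) or 10 µM (2 libraries) of 5-aza-2'-deoxycytidine (5-aza-dC), a cytidine analogue that is built into replicating DNA and traps DNA methyltransferases. Dead cells were removed from every group before DNA was prepared. The replicates are library preparation replicates, so each p-value measures the spread between these libraries, which may be technical.

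During meiosis, cohesin rings that contain germ cell subunits hold sister chromatids along a protein axis, and the synaptonemal complex joins the axes of homologous chromosomes like a zip. Recombination starts from programmed DNA breaks, which are repaired from the homologous chromosome. Many genes of this programme are silent in somatic cells and carry methylated, CpG-rich promoters there.

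Libraries held 8590777 to 16495423 reads at CpGs, and the 8 ends held 33 to 386 reads in a library. Reads were counted at each CpG and summed, so a sequencing read that covers several CpGs counts several times. The 95% Wilson interval of a level ran from 3.39 to 15.3 percentage points either side of its middle. The intervals account for counting error alone, and copies made by PCR were not told apart. The intervals also treat counts at CpGs of the same sequencing read as independent, so they can be too narrow. A level is the methylated share of all reads, so fewer methylated cells and partial loss in each cell cannot be told apart, and the parental alleles were not separated. Of 7 passing ends of 6 B lineage marker genes, 6 were under 20% in DMSO, among them Ebf1 at 0.300%, while the end of Blk was at 96.6%. The start and 3′ end of Vpreb1 are counted separately but gave the same values over 5 CpGs. The median of all ends in DMSO was 7.86%. Of passing marker ends, 1 of 3 T lineage, 2 of 3 myeloid and 1 of 1 erythroid were also under 20%. A low level is therefore not particular to B lineage genes. No expression was measured.

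The promoters of Hormad1 and Sycp1 are shown because their CpGs were read best next to the start, and that of Sycp3 as an example of a stretch in which no CpG was read, as was also so in Syce1, Stag3, Dmc1 and Rec8. Each sequence is the 250 bases before the start in RefSeq's promoter table (GRCm38.p6), 5′ to 3′ on the gene's strand. Capitals mark CpGs read in every library.
Hormad1: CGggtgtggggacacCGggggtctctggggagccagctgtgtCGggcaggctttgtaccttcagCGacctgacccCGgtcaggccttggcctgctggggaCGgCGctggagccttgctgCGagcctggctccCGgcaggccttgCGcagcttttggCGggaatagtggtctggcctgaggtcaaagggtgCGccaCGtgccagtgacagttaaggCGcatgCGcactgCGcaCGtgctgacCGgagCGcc
Sycp1: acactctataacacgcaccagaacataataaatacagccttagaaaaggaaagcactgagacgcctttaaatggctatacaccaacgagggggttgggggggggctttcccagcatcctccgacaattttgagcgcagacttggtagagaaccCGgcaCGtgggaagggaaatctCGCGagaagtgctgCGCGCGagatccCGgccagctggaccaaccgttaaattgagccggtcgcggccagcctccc
Sycp3: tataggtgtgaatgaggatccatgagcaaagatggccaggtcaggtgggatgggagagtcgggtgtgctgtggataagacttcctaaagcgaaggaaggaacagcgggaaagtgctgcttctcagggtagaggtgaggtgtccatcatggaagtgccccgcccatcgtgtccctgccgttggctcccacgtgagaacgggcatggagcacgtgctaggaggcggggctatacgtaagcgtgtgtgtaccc
The Hormad1 stretch lies at chr3:95559427-95559676 on the plus strand, and all 19 of its CpGs were read in every library. The Sycp1 stretch lies at chr3:102936101-102936350 on the minus strand, and 8 of its 17 CpGs were read in every library. The Sycp3 stretch lies at chr10:88459337-88459586 on the plus strand and holds 12 CpGs, none of which was read. All 15 CpGs of Sycp3 read in every library lie past the start. Over the table's 300 bases, from 250 before to 50 after the start, the 9 members with an entry held 10 to 30 CpGs with a median of 18, against a median of 7 in 27025 promoters. On both strands, the letters TCCCGC were found in 7 of the 9 members and in 20% of all promoters. The letters CACGTG were found in 4 of the 9 and in 7.24%, and GGGCGG in 4 of the 9 and in 35.9%. Such a match describes the letters and is not a site. Each of these strings holds a CG, and the promoters compared were not matched for CpG number. For Stag3 the stretch lies at an inner start, 7995 bp from the 5′ end described below.

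In DMSO the 8 ends were highly methylated, with a median of 92.1%. At 0.2 µM and at 2 µM all 8 fell, to medians of 52.9% and 51.7%, and at 10 µM 5 of the 8 fell and the median of all 8 was 63.6%. A fall means an adjusted p under 0.05 in a binomial model on reads with limma's moderation, Benjamini-Hochberg adjusted over all 23099 ends. The same test called 39.7% of all ends lower with 0.2 µM, 29.1% with 2 µM and 5.94% with 10 µM. Among the 6309 ends at 70% or more in DMSO, as every member end was, it called 95.9%, 85.3% and 20.5%. Among the 1920 start ends at that level it called 96.1%, 87.8% and 28.8%. At 0.2 µM and 2 µM the members' share is therefore near that of methylated ends in general. The inner start of Stag3, described below, is not among the 8. Its mean was 61.0% in DMSO, and its change at 2 µM did not pass (limma-moderated adjusted p = 0.0533). In all 8 ends the libraries of each dose lay below both DMSO libraries, as did 61.7%, 44.1% and 35.9% of all ends, and 99.5%, 94.9% and 75.7% of those at 70% or more.

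**Figure D1:**
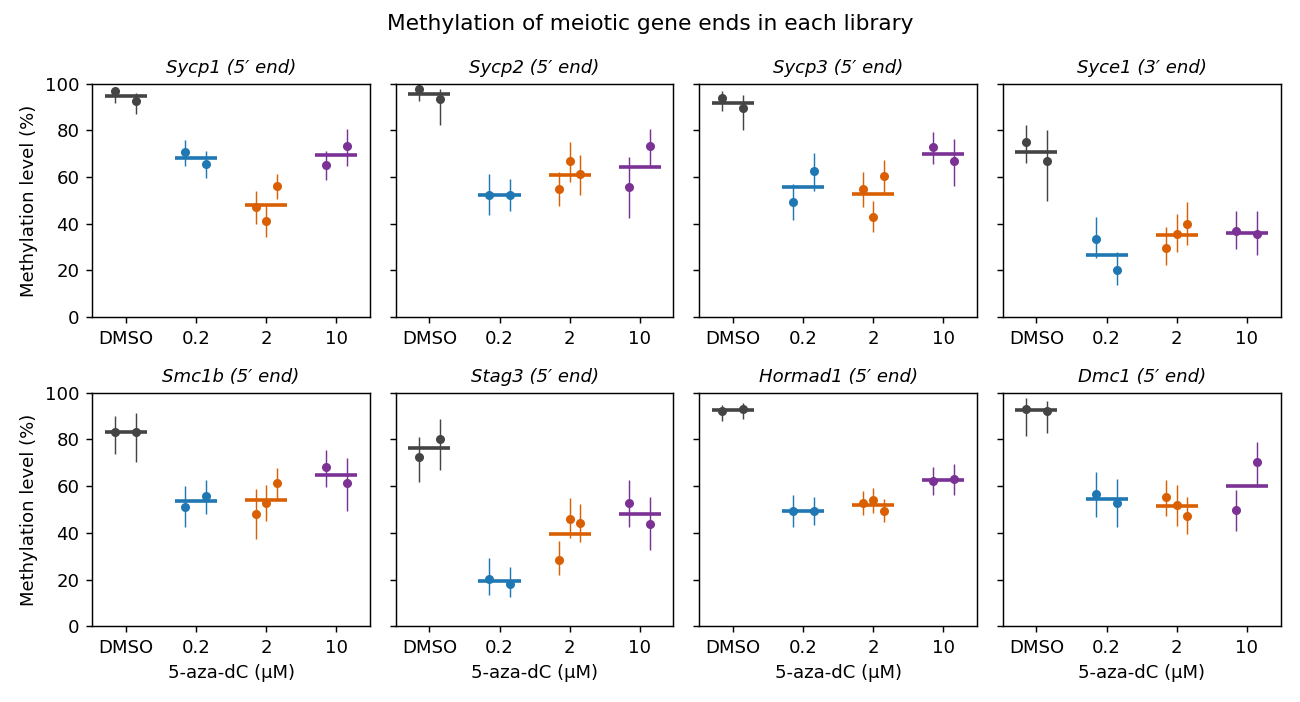
Methylation level (%) of each member end by 5-aza-dC dose (µM). Points are libraries with 95% Wilson intervals and bars are group means; in every panel the treated libraries lie below both DMSO libraries.

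Smc1b and Stag3 encode germ cell subunits of cohesin. The Smc1b window (chr15:85130957-85132957) also overlaps the neighbouring gene Ribc2. Its level was 83.3% in both DMSO libraries, 51.3% and 55.6% with 0.2 µM, 48.1%, 52.9% and 61.2% with 2 µM, and 68.0% and 61.2% with 10 µM. The 3 doses overlapped or nearly met, while DMSO stood above them. Smc1b fell by 29.9 points at 0.2 µM (binomial model with limma, adjusted p = 0.00842) and by 29.3 points at 2 µM (adjusted p = 0.00932, same model). At 10 µM the change of -18.8 points did not pass (adjusted p = 0.256, same model). Without DMSO replicate 1 neither fall of Smc1b passed (limma-moderated adjusted p = 0.0656 at 0.2 µM and 0.0912 at 2 µM), and without DMSO replicate 2 the fall at 2 µM did not (0.0672). Only 7 of the 50 CpGs seen in its window were read in every library. Over those 7 the unweighted mean was 80.3% in DMSO, 43.3% with 0.2 µM, 35.9% with 2 µM and 44.6% with 10 µM, and the change of -35.6 points at 10 µM did not pass (limma on these means, adjusted p = 0.149).

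The Stag3 window (chr5:138271514-138273514), which also overlaps Gal3st4, had the lowest level of any 5′ end among the members after treatment. It was 72.5% and 80% in DMSO, 20.2% and 18.2% with 0.2 µM, 28.5%, 46.0% and 44.2% with 2 µM, and 52.7% and 43.7% with 10 µM. The 0.2 µM libraries lay below every other library. Stag3 fell by 57.1 points at 0.2 µM (binomial model with limma, adjusted p = 5.76e-05) and by 36.7 points at 2 µM (adjusted p = 0.00247, same model), and at 10 µM the change was -28.0 points (adjusted p = 0.0942, same model). RefSeq's promoter table places the start of Stag3 7995 bp further inside the gene. That window, added after the files were seen, was at 51.4% and 70.5% in DMSO, 31.9% and 36.4% with 0.2 µM, 42.5%, 46.2% and 33.3% with 2 µM, and 43.4% and 58.3% with 10 µM. There the change was -26.8 points at 0.2 µM (limma-moderated adjusted p = 0.0113), -20.3 at 2 µM (0.0533) and -10.1 at 10 µM (0.934). CpGs inside the body of Stag3 were at 90.8% ± 1.5 (SD, n = 2) in DMSO, 41.2% ± 1.07 (n = 2) with 0.2 µM, 53.0% ± 5.69 (n = 3) with 2 µM and 60.7% ± 1.30 (n = 2) with 10 µM.

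Rec8, the germ cell kleisin that closes the cohesin ring, was barely read. At its start 6 reads were counted over 6 CpGs, all in a single library at 0.2 µM. They may come from a single sequencing read. At its 3′ end 4 of 4 pooled reads were methylated in DMSO, 5 of 28 at 0.2 µM, 18 of 34 at 2 µM and 18 of 25 at 10 µM. With so few reads no comparison was made.

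Sycp2 and Sycp3 form the axial and lateral elements of the synaptonemal complex. Sycp2 (chr2:178406776-178408776) was at 97.9% and 93.3% in DMSO, 52.5% and 52.4% with 0.2 µM, 55.0%, 67.0% and 61.2% with 2 µM, and 55.8% and 73.1% with 10 µM. It fell at each of the 3 doses, with changes of -43.2, -34.6 and -31.2 points (binomial model with limma, adjusted p = 0.000148, 0.000619 and 0.0163). The fall of Sycp2 at 10 µM did not pass in 6 of 18 alternative settings. Among these were leaving out either DMSO library or the lower 10 µM library. The order of the lower doses depends on which CpGs are counted, since only 5 of the 50 CpGs seen were read in every library. Over those 5 the unweighted mean was 50.4% with 0.2 µM and 46.0% with 2 µM, the reverse of the order over all reads. Sycp3 (chr10:88458587-88460587) was at 93.8% and 89.7% in DMSO, 49.3% and 62.5% with 0.2 µM, 54.9%, 42.9% and 60.5% with 2 µM, and 73.0% and 67.1% with 10 µM. The 10 µM libraries of Sycp3 lay between DMSO and the lower doses. Sycp3 fell at 0.2 and 2 µM, with changes of -35.8 and -39.0 points (binomial model with limma, adjusted p = 0.000741 and 0.000340), and its change of -21.7 points at 10 µM did not pass (adjusted p = 0.0785, same model).

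Hormad1 encodes an axis protein with a HORMA domain that promotes break formation and is removed as chromosomes synapse. All 28 CpGs seen in its window (chr3:95558677-95560677) were read in every library, and it had 197 to 386 reads per library, the most of any member. Its level was 92.0% and 92.9% in DMSO, 49.3% in both libraries with 0.2 µM, 52.7%, 53.8% and 49.5% with 2 µM, and 62.4% and 62.9% with 10 µM. The libraries of a group differed by at most a few points, and those at 10 µM lay above every library of the lower doses. Hormad1 fell at each dose, with changes of -43.2, -40.4 and -29.8 points in rising order of dose (binomial model with limma, adjusted p = 8.06e-06, 5.80e-06 and 0.00203). Its fall at 10 µM did not pass in 1 of 19 alternative settings, limma on the unweighted mean over its CpGs (adjusted p = 0.0816).

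Within the Hormad1 window the level at 0.2 µM differed by position. From 1000 to 251 bases before the start it was 33.8% ± 4.92 (SD, n = 2), and within 250 bases of the start it was 54.7% ± 2.15 (SD, n = 2). At 2 µM the corresponding levels were 53.7% ± 2.36 and 51.7% ± 2.70 (SD, n = 3). In DMSO they were 98.7% ± 1.86 and 91.7% ± 0.983 (SD, n = 2). These bands describe positions, and their difference was not tested.

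**Figure D2:**
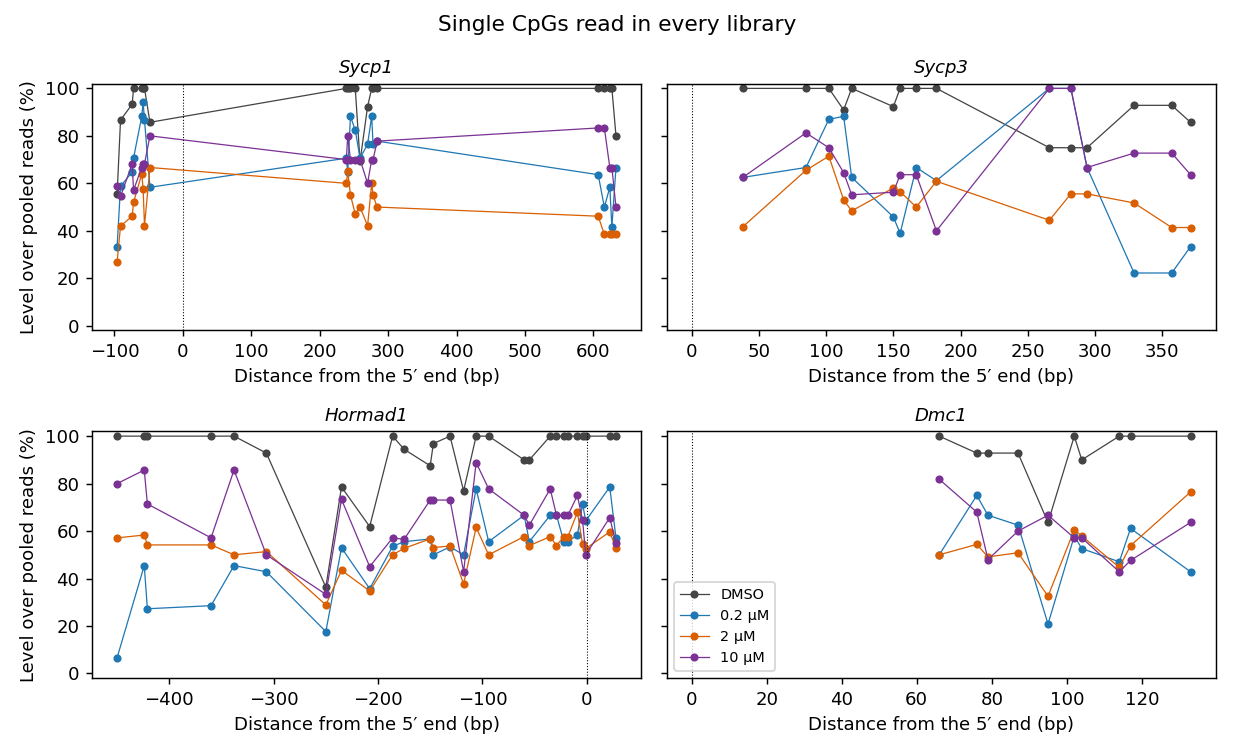
Level (%) over the pooled reads of each group at single CpGs read in every library, against distance from the 5′ end (bp, negative before the start) in Sycp1, Sycp3, Hormad1 and Dmc1; colours are groups and the dotted line is the start. In DMSO 24 of the 28 CpGs of Hormad1 are at 80% or above, and at 0.2 µM none is.

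Sycp1 encodes the transverse filament that spans the synaptonemal complex. Sycp1 (chr3:102935100-102937100) was at 96.6% and 92.6% in DMSO, 70.7% and 65.8% with 0.2 µM, 47.1%, 41.3% and 56.0% with 2 µM, and 65.2% and 73.3% with 10 µM. The 3 libraries at 2 µM lay below all others, and those at 0.2 µM and 10 µM overlapped. Sycp1 fell at each dose, with changes of -26.4, -46.5 and -25.3 points in rising order of dose (binomial model with limma, adjusted p = 0.000309, 2.75e-06 and 0.00509). Its fall at 10 µM did not pass in 4 of 19 alternative settings. Among these were leaving out DMSO replicate 1 or 10 µM replicate 1. CpGs elsewhere in the gene body were at 87.8% ± 7.83 (SD, n = 2) in DMSO, 36.0% ± 4.72 (n = 2) with 0.2 µM, 44.9% ± 17.2 (n = 3) with 2 µM and 68.0% ± 23.2 (n = 2) with 10 µM.

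Syce1 encodes a protein of the central element. No CpG was read within 1 kb of its start, so only its 3′ end (chr7:140776229-140778229) is described. It was at 75.0% and 66.7% in DMSO, 33.6% and 20% with 0.2 µM, 29.8%, 35.7% and 39.8% with 2 µM, and 37.0% and 35.4% with 10 µM. All treated libraries lay well below DMSO and the doses overlapped or adjoined. Syce1 fell at each dose, with changes of -44.0, -35.7 and -34.6 points (binomial model with limma, adjusted p = 0.000600, 0.00283 and 0.0284). Without DMSO replicate 1 the change at 2 µM was -31.5 points and did not pass. The fall of Syce1 at 10 µM did not pass in 6 of 17 alternative settings. Among these were leaving out either DMSO library or either 10 µM library.

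Dmc1 encodes the meiotic recombinase that carries out strand exchange with the homologous chromosome. The 10 CpGs read in its window (chr15:79604159-79606159) lie 66 to 133 bases past the start. The level was 93.0% and 92.1% in DMSO, 56.6% and 52.8% with 0.2 µM, 55.1%, 51.7% and 47.3% with 2 µM, and 49.6% and 70.2% with 10 µM. The 10 µM libraries lay further apart than those of any other group, and the lower of them was within the range of the lower doses. Dmc1 fell at each dose, with changes of -37.9, -41.2 and -32.6 points (binomial model with limma, adjusted p = 0.00102, 0.000466 and 0.0182). Its fall at 10 µM did not pass in 6 of 19 alternative settings. Among these were leaving out either DMSO library or the lower 10 µM library.

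Spo11 encodes the enzyme that makes the meiotic breaks, and the promoter table has no entry for it. At the end with the higher coordinate 5 of 5 pooled reads were methylated in DMSO, 6 of 23 at 0.2 µM, 9 of 19 at 2 µM and 8 of 11 at 10 µM. At the other end 0 of 6 reads were methylated in DMSO, 0 of 9 at 2 µM and 0 of 7 at 10 µM. No read was counted there at 0.2 µM. The 95% Wilson intervals reached 39.0%, 29.9% and 35.4% in the same order. Those reads were counted over 8 CpGs that can share a sequencing read, so the intervals at this end of Spo11 can be too narrow. Its gene body was better read, at 85.4% ± 1.10 (SD, n = 2) in DMSO, 49.2% ± 4.21 (n = 2) with 0.2 µM, 49.0% ± 3.85 (n = 3) with 2 µM and 71.1% ± 2.79 (n = 2) with 10 µM.

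Over the 4 groups together, an exact permutation test over 7560 assignments of the libraries, whose smallest p is 0.000794, was run for each of the 8 ends. The unadjusted p was lowest for Hormad1 (exact permutation p = 0.00159) and highest for Dmc1 (exact permutation p = 0.05), and 7 of the 8 were under 0.05. No share over all ends is given for this test, so the count does not set the members apart. At 10 µM the count of 5 ends that fell, Sycp1, Sycp2, Syce1, Hormad1 and Dmc1, varied most with the processing. A first version of the model, which took the prior of the dispersion from all windows, called 2 of them, Hormad1 (adjusted p = 0.0341) and Sycp1 (adjusted p = 0.0439), with limma. The prior was changed after those member results had been seen, for the reason given with the processing. The count at 10 µM was 1 without DMSO replicate 1, 2 without DMSO replicate 2, 1 without 10 µM replicate 1 and 4 without 10 µM replicate 2.

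Between doses, 0 of the 8 ends passed in either direction, while the binomial model with limma called 4.04% of all ends higher and 0.407% lower at 2 µM than at 0.2 µM, and 4.52% higher and 0.00866% lower at 10 µM than at 2 µM. Among ends at 70% or more in DMSO these shares were 10.6% and 1.47%, then 13.5% and 0.0%. At an unadjusted p under 0.05 there were 2 of 8 in each comparison, a count for which no share over all ends is given here. From 0.2 to 2 µM Sycp1 changed by -20.1 points (limma-moderated adjusted p = 0.0586) and Stag3 by 20.4 points (0.121), and the other 6 by -3.30 to 8.59 points. From 2 to 10 µM all 8 values were higher, by 1.09 to 21.1 points. The largest of these, in Sycp1, had an adjusted p of 0.0598 in the same limma-moderated model. Over this step 28.2% of all ends, and 5.77% of ends at 70% or more in DMSO, had lower values. The median change was 9.59 points over the member ends and 17.8 points over the ends at 70% or more. Without scaling of the read numbers for their correlation, Sycp1 passed as lower (adjusted p = 0.0243) and Stag3 as higher (adjusted p = 0.0355) from 0.2 to 2 µM with limma moderation. The change of Sycp1 from 0.2 to 2 µM also passed without 10 µM replicate 1 (adjusted p = 0.0492, same model) and without 10 µM replicate 2 (0.0490).

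**Figure D3:**
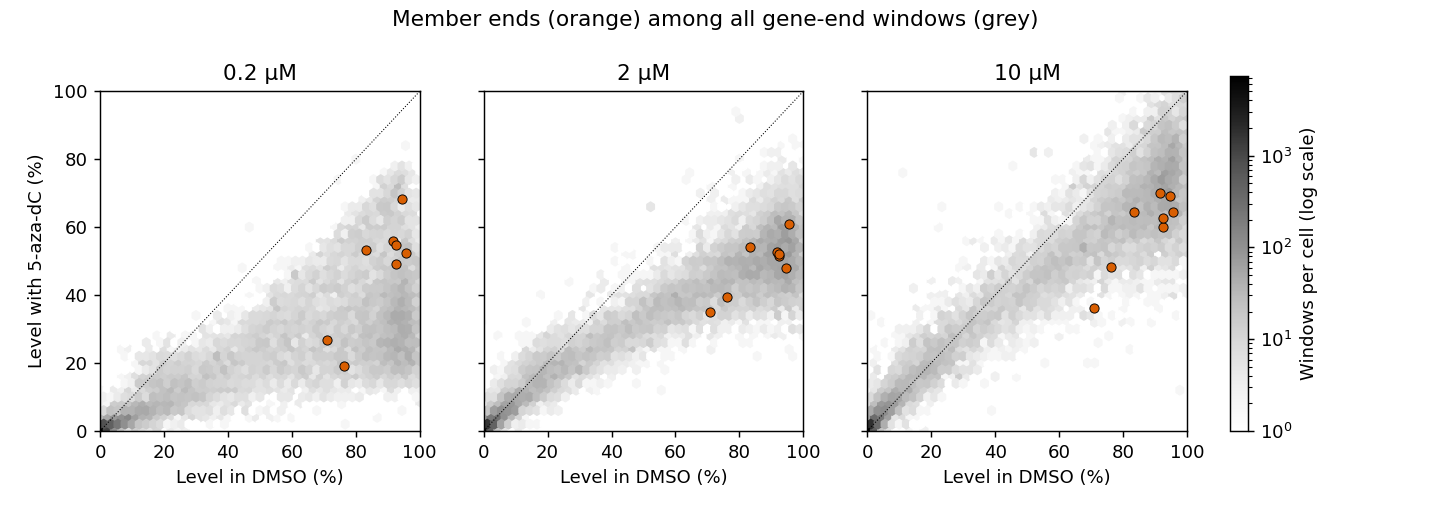
Mean level (%) of each gene end with 5-aza-dC against its mean level (%) in DMSO, 1 panel per dose; grey cells count all 23099 ends on a log scale, orange points are the 8 member ends and the dotted line marks equality. All 8 points lie below the line at each dose.

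The members were set beside other methylated ends by the number of CpGs seen in the window. The classes were chosen after the results were seen (28 is the number in Hormad1). CpGs that no library read are not counted, so CpG-rich and CpG-poor here mean many or few CpGs seen. Of the member ends, 5 had 28 or more CpGs: Sycp1, Sycp2, Sycp3, Smc1b and Hormad1. The 1650 ends at 70% or more in DMSO with 28 or more CpGs had medians of 86.7% in DMSO, 52.5% with 0.2 µM, 52.1% with 2 µM and 68.6% with 10 µM. The 1830 such ends with 1 to 9 CpGs had medians of 90.9%, 30%, 47.7% and 67.0%, and the 2829 with 10 to 27 CpGs, the class of Dmc1 and Stag3, had 90.1%, 32.0%, 50.9% and 70.8%. The median change from 0.2 to 2 µM was 1.69 points over the member ends, -1.73 points over the CpG-rich ends, 18.5 points over the middle class and 17.3 points over the CpG-poor ends. These classes mix start ends with other ends, while all 5 CpG-rich member ends are starts. The 897 CpG-rich start ends had medians of 85.4% in DMSO, 55.9% with 0.2 µM, 51.8% with 2 µM and 67.1% with 10 µM. Their median change from 0.2 to 2 µM was -4.67 points. The members' medians lay nearer to the CpG-rich ends at 0.2 µM, as a description with no test. Dmc1, with 10 CpGs seen and a mean of 54.7% at 0.2 µM, stood above the median of its own class. Stag3, with 14 CpGs seen and 19.2%, stood below it. Of the 12 CpGs in the 250 bases before the Dmc1 start none was read, so its class may understate its CpGs. At 10 µM 42.2% of the CpG-rich ends were called lower, against 13.3% of the middle class and 12.2% of the CpG-poor ends, and 3 of the 5 CpG-rich member ends were. Among the CpG-rich start ends the share was 46.7%.

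**Figure D4:**
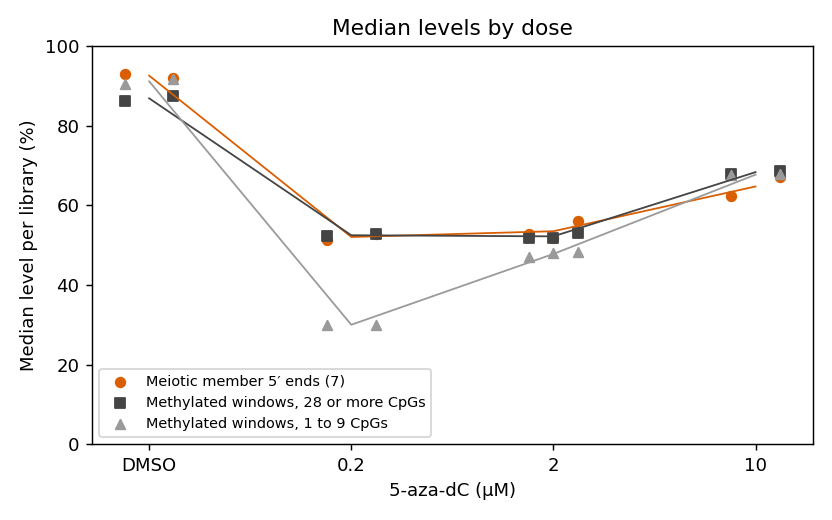
Median level (%) in each library by 5-aza-dC dose (µM), for the 7 member 5′ ends and for classes of ends. The classes are ends at 70% or more in DMSO with 28 or more (CpG-rich) or 1 to 9 (CpG-poor) CpGs seen. Points are libraries and lines join group means. At 0.2 µM the member and CpG-rich medians lie above 50% and the CpG-poor medians near 30%.

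Among 11014 start ends with 30 or more reads in each library, the 5 outside the members closest to the members' median profile over 9 libraries were those of Rnf225, Ky, E530011L22Rik, Mxra7 and Gm12111, with mean absolute differences of 2.72, 2.76, 3.23, 3.34 and 3.36 points. Hormad1 itself differed by 2.23 points and Stag3 by 19.2 points. Both are among the 7 starts whose median is the profile, so these values are not comparable with those of genes outside the members. In 2 µM replicate 1 and 10 µM replicate 1 the median is the value of Hormad1.

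Other meiosis genes did not share 1 level. Of a list of 35, 34 were in the annotation and 22 had 25 ends that passed, of which 9 were at 70% or more in DMSO and 12 under 20%. The highest starts in DMSO were those of Meioc (96.4%), which sustains the meiotic programme, Terb1 (96.2%), which ties telomeres to the nuclear envelope, and Hsf2bp (95.8%), a partner of the recombination machinery. The lowest were Trip13 (0.177%), an ATPase that removes HORMA proteins, Mei4 (0.218%), needed for break formation, and Mnd1 (0.408%), a cofactor of strand exchange. Of the 25 ends 11 fell at 0.2 µM, 11 at 2 µM and 2, Meioc and Terb1, at 10 µM, and 0 rose against DMSO. Over all ends 39.7%, 29.1% and 5.94% were called lower at the 3 doses, and 0.0606%, 0.156% and 0.173% higher. In the first version of the model neither fall at 10 µM passed (limma-moderated adjusted p = 0.0618 for Meioc and 0.147 for Terb1). The fall of Meioc did not pass without DMSO replicate 1 (0.15), DMSO replicate 2 (0.0975) or 10 µM replicate 1 (0.0583). That of Terb1 did not pass when either DMSO library, 0.2 µM replicate 2, 2 µM replicate 1 or 2, or 10 µM replicate 2 was left out (limma-moderated adjusted p = 0.0659 to 0.574). Without 10 µM replicate 2 its change was -6.86 points (limma-moderated adjusted p = 0.574), against -19.5 with all libraries.

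Between doses 3 of these genes rose. Of the 25 ends 2 were called higher and 0 lower at each step, where 4.04% and 4.52% of all ends were called higher. Of the 9 ends at 70% or more in DMSO it was 1 at each step, against 10.6% and 13.5% of all such ends. The start of Syce2, which encodes a central element protein, was at 51.8% ± 3.22 (SD, n = 2) in DMSO, 18.6% ± 0.0548 (n = 2) with 0.2 µM, 36.8% ± 5.21 (n = 3) with 2 µM and 53.0% ± 0.658 (n = 2) with 10 µM. It rose from 0.2 to 2 µM (binomial model with limma, adjusted p = 0.0134) and from 2 to 10 µM (adjusted p = 0.0414, same model). The higher-coordinate end of Majin, a telomere attachment gene, rose from 35.0% to 65.2% from 0.2 to 2 µM (limma-moderated adjusted p = 0.0411), and Meioc from 55.3% to 77.5% from 2 to 10 µM (limma-moderated adjusted p = 0.0289). None of these 4 rises passed in the first version of the model (limma-moderated adjusted p = 0.0995 and 0.126 for Syce2, 0.128 for Majin and 0.116 for Meioc). Each was also lost when single libraries were left out. The rise of Syce2 from 0.2 to 2 µM did not pass without either 0.2 µM library (limma-moderated adjusted p = 0.159 and 0.145). Its rise from 2 to 10 µM passed when 2 µM replicate 1 was left out, and did not pass when any 1 of the other 8 libraries was (0.0538 to 0.165, same limma-moderated model). The rise of Majin did not pass without either DMSO library, either 0.2 µM library, or 2 µM replicate 2 or 3 (0.0584 to 0.269, same limma-moderated model). That of Meioc did not pass without either 10 µM library or 2 µM replicate 3 (0.0576 to 0.172, same limma-moderated model).

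The ends of 3 mitotic cohesin genes passed. Smc3, a core cohesin subunit, was at 0.793% in DMSO. The X-linked cohesin genes Smc1a and Stag2 were at 18.4% ± 8.57 and 15.5% ± 10.5 (SD, n = 2) in this female line. The end of Stag2 was at 35.6% ± 9.03 (SD, n = 2) at 10 µM, higher than in DMSO (binomial model with limma, adjusted p = 0.0190), where few ends in all were called higher. That rise did not pass in the first version of the model (limma-moderated adjusted p = 0.0911). The change of 20.2 points was 12.8 without DMSO replicate 2 (adjusted p = 0.363, same model) and 13.8 without 10 µM replicate 2 (adjusted p = 0.178, same model).

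**Figure D5:**
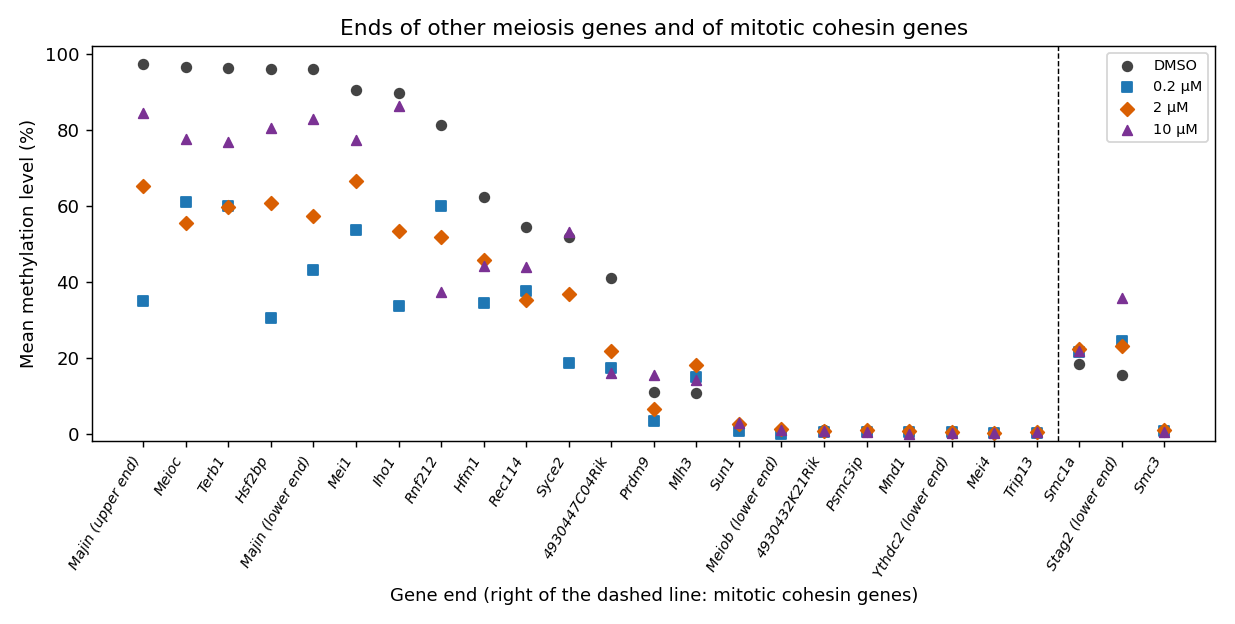
Mean level (%) in each group at ends of other meiosis genes, in order of the DMSO level, and of 3 mitotic cohesin genes right of the dashed line. Levels in DMSO run from 97.1% at the higher-coordinate end of Majin to 0.177% in Trip13.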

How the data were processed

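Methylation was read from 9 RRBS libraries in 4 groups (2, 2, 3 and 2 libraries). The authors deposited 1 table per library, in which each CpG carries a text entry of methylated over all reads and a score. The deposited score is the methylated share scaled to 1000, and it was used only to check the entry. The build is mm10, per the submitters' processing notes; its aligner and its caller were not given in the sources used here. All 252056 CpGs read in RefSeq promoters (GRCm38.p6) lay on a CG. Gene ends came from RefSeq's gene table and strand from its promoter table.

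Reads were summed over the CpGs within 1 kb of each end of every gene of the table, all gene types included. A sequencing read over several CpGs was counted at each. An end needed 10 reads in each library or 5 CpGs read in every library. Changes were tested with a binomial model over all 9 libraries, after read numbers had been scaled for their correlation within a library in 5 coverage classes. The dispersion, not under 1, was moderated with limma 3.58.1 (R 4.3.3), and p-values were Benjamini-Hochberg adjusted over 23099 ends (threshold 0.05). Levels, intervals and exact permutation tests used Python 3.11.15, numpy 2.4.6, pandas 2.3.3 and scipy 1.17.1, and figures matplotlib 3.10.9.

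The test was changed once after results were seen. At first the prior of the dispersion came from all windows, and on simulated data that version recovered few of the changes. It was then taken from windows at 10 to 90%, after the member results of the first version had been printed. The first version is kept as an alternative. The use of all gene types, the class at 70% or more in DMSO, the CpG classes and the inner start of Stag3 were also chosen after the files or results were seen.

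The members, lists and tests were chosen with earlier results of these data known. All members were named, with the 3 highest and 3 lowest starts of the other meiosis genes, any of those that rose, the mitotic counterparts, and the 5 starts closest in profile. Values of some of the listed genes are not reported here. Deviations from the group means showed no pairing of the libraries by replicate number. Alternatives changed the read minimum, the test, the scaling, the window, the CpGs kept, the start sites and the libraries.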

Additional observations from a re-analysis of the deposited data

How the results depend on the processing

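Every change of a member end against DMSO kept its direction under all alternatives run. The limits are 2 or 3 libraries a group and as few as 33 reads, summed over CpGs, at an end.

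The counts of 9161, 6721 and 1371 ends called lower at 0.2, 2 and 10 µM against DMSO, and the 933 and 1043 called higher from 0.2 to 2 and from 2 to 10 µM, depended on the processing. Windows of 500 bp either side gave 5477, 4021, 689, 117 and 231, with 3 of 6 member ends lower at 10 µM. Start sites of the promoter table, added after the data were seen, gave 4337, 2926, 706, 127 and 376. The first version of the test, with the dispersion prior from all windows, gave 364 at 10 µM with 2 member ends, 0 from 0.2 to 2 µM and 4 from 2 to 10 µM. limma on levels gave 320 at 10 µM with 2 member ends and 598 from 2 to 10 µM. limma on the unweighted mean over shared CpGs gave 61 at 10 µM with 0 member ends (main count 5), 0 from 0.2 to 2 µM and 7 from 2 to 10 µM, and Sycp3 did not pass at 0.2 µM (adjusted p = 0.107). No scaling of reads gave 2445 from 0.2 to 2 µM with 1 member end higher, and 1695 from 2 to 10 µM. A minimum of 20 reads gave 578 from 0.2 to 2 µM. With a minimum of 20 or 5 reads, or the start sites of the promoter table, Sycp3 passed at 10 µM (limma-moderated adjusted p = 0.0408, 0.0422 and 0.0419). The cause of these differences was not tested.

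With 1 library left out at a time, ends called numbered 7286 to 9295, 4016 to 6828, 210 to 1474, 0 to 1124 and 97 to 774 in the same order. Member ends lower numbered 7 to 8, 6 to 8 and 1 to 5 at the 3 doses, 0 were higher between doses, and 5 to 8 had an exact permutation p under 0.05. A lone library in a group is assumed to vary like the others.

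Over ends at 10 to 90%, each library's deviation from the mean of its group was correlated between groups. These deviations correlated by -0.0104 to 0.0217 for same-numbered libraries and by -0.0217 to 0.0165 for the others. They show no pairing by number. In a group of 2 the deviations mirror each other, so many of these values differ in sign only. With the replicate number as a block, on replicates 1 and 2, 494 ends were higher from 0.2 to 2 µM and 662 from 2 to 10 µM. The member counts lower under the block were 8, 8 and 5.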
